A study of Mus musculus with 32 samples.

Results

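The day 7 comparison set fluorescent microglia from a cortical stab wound against those from the non-injured hemisphere, 7 days after the wound. Its members are the 8 deposited columns of that day, of 32 in the series: 4 from the wound site and 4 from the corresponding site on the opposite, non-injured side, with 2 columns of each sex on each side. The cells came from adult C57BL/6 mice carrying 1 copy of the Cx3cr1CreER allele, a tamoxifen-inducible Cre recombinase driven by the fractalkine receptor gene. All groups, the non-injured ones included, received tamoxifen at 180 mg/kg on 5 days from 8 to 10 weeks of age, which switched on the yellow fluorescent protein EYFP before injury. Cx3cr1 is also active in other macrophages and in blood monocytes, so the sort by EYFP alone does not restrict the cells to microglia. The non-injured cells come from the other hemisphere of operated mice and not from unoperated mice.

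Microglia are the resident macrophages of the brain. At rest they carry a receptor set for sensing nucleotides, lipids and debris, and tissue damage is known to move them towards a phagocytic state rich in lysosomal, lipid-handling and matrix genes. In the first weeks after a wound they also proliferate, and monocytes from the blood enter the lesion.

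The 2 columns of each sex and side, which the series describes as biological replicates, differed by little more than counting noise for the typical gene. The median chi-square per gene between columns was 0.493, 0.549, 0.514 and 0.579 in the 4 day 7 groups, against 0.455 for counting noise alone. The groups are injured female and male, then non-injured female and male. The mean chi-square, which genes with large differences raise, was 1.33, 1.54, 1.39 and 1.94 in the same order. The columns were therefore summed, which leaves 4 libraries: injured female, injured male, non-injured female and non-injured male. The injured libraries held 40848878 (female) and 38890179 (male) counts, and the non-injured ones 23673779 (female) and 35149840 (male). The non-injured female library detected 40975 genes, against 18732 to 23535 in the other day 7 libraries. Mitochondrial transcripts made up 1.07% (female) and 2.29% (male) of the injured libraries, and 1.2% (female) and 6.70% (male) of the non-injured ones. With 1 library per sex and side there is no spread between replicates of a group. The spread in the fit below is the disagreement between the female and male injury effects, pooled over days 1, 4, 7 and 14 (8 pairs, 4 residual degrees of freedom). The labels do not name separate animals, so the p-values measure only the spread between these libraries.

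The labels and the cell identity were checked first. Xist, the RNA that silences an X chromosome, lay at 221 CPM in the injured female library and 286 CPM in the non-injured female library, and at 0 in both male libraries. CPM are counts per 1e6 counts, scaled with TMM normalization factors. The helicase gene Ddx3y of the Y chromosome lay at 143 CPM in the injured male library and 145 CPM in the non-injured male library, and at 0 in both female libraries. All 30 microglial markers examined were detected in all 4 libraries, and their summed level was 59340 (female) and 45590 (male) CPM in injured libraries and 67450 (female) and 61080 (male) CPM in non-injured ones. Cx3cr1, whose locus carries the recombinase, lay at 22.6 and 2.84 CPM in the injured female and male libraries, against 31.3 and 5.23 CPM in the non-injured ones. On both sides the sexes differed more than the injured and non-injured libraries of one sex, and the fitted Cx3cr1 difference of -0.63 (SE 0.48) on the log2 scale was not called (edgeR adjusted p = 0.417).

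The main comparison asked which genes differ between wound and non-injured microglia at day 7. Genes that rose in wound cells included Spp1 (osteopontin), Igf1 (a growth factor), Plin2 (a lipid droplet protein), Ctsb (a lysosomal protease) and Hmox1 (heme oxygenase), together with the monocyte marker Ccr2. Genes that fell included Upk1b and Slc2a5, both known from resting microglia. In edgeR's quasi-likelihood test 107 of 28597 genes were called at an adjusted p under 0.05. Of these 91 rose, which is 0.318% of the genes tested, and 16 fell, which is 0.0559%. In 90 of the risen genes both injured libraries lay above both non-injured ones, and in 15 of the fallen genes both lay below. In sorted bulk RNA, fewer cells of a type and less RNA per cell cannot be told apart.

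The calls rest on both pairs and on the scaling. In edgeR 0 of 32376 genes were called without the female pair, 0 of 33573 without the male pair and 0 of 28597 when the pair term was dropped (2552, 3049 and 1702 genes at an unadjusted p under 0.05), while DESeq2 called 2188, and all 107 genes kept their direction in each of these fits. The TMM factors were 0.719 and 0.706 in injured and 1.45 and 1.25 in non-injured libraries (female first), and median-ratio factors lowered the median log2 difference by 0.40, giving 51 higher and 40 lower calls. A limma fit on log2(TPM + 1) gave 41 higher and 138 lower. The DESeq2 calls were 825 higher and 1363 lower, with no adjusted p for 11643 genes. Calls favour genes in which both pairs move together, so a kept direction without 1 pair is no separate support.

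A plain description was used beside the test. A gene was said to stand apart when both injured libraries lay at least 2-fold above, or below, both non-injured libraries, with 1 CPM added. Among the 8678 genes whose mean over the 4 libraries reached 10 CPM, 728 stood apart higher (8.39%) and 85 stood apart lower (0.979%). The median log2 difference of these genes was 0.58, so differences of gene groups are read against that value and not against 0. Over all 28597 genes tested the median was -0.84. With median-ratio factors 421 stood apart higher (4.85%) and 166 lower (1.91%), with a median of 0.20. On TPM 174 stood apart higher (2.01%) and 470 lower (5.42%), with a median of -0.48.

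**Figure D1:**
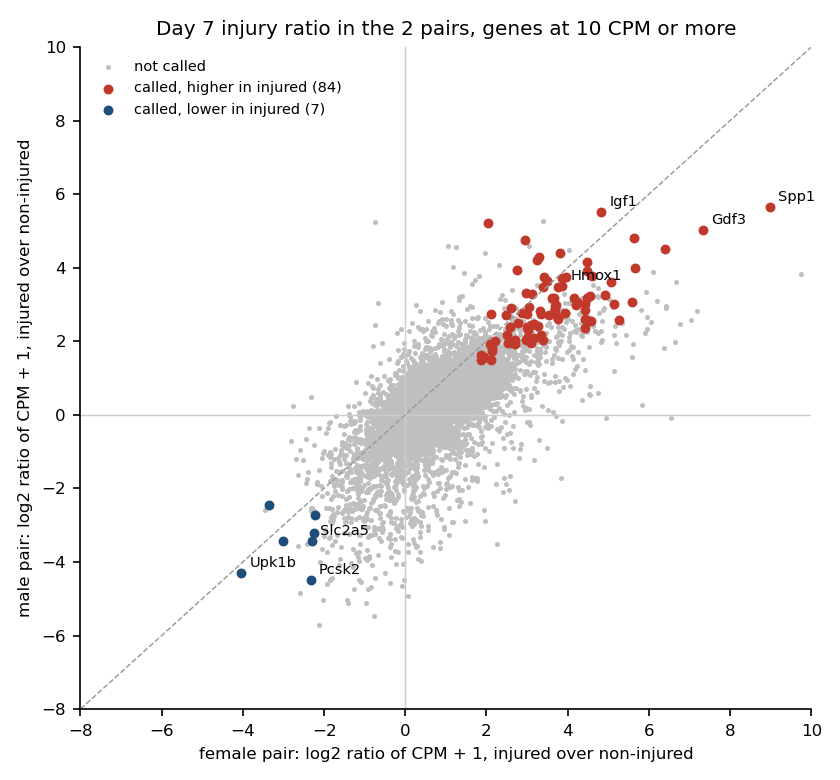
Log2 ratio of CPM + 1, injured over non-injured, in the female pair (x axis) and the male pair (y axis) for genes whose day 7 mean reached 10 CPM. Red points are called genes that rose and blue points called genes that fell. The dashed line marks equal ratios, and most red points lie below it, where the female ratio is the larger. Over all genes shown the median was also larger in the female pair, at 0.75 against 0.38.

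The non-injured male library differed from the non-injured female one in ways that bear on every comparison. Of the 91 genes that rose, 70 were higher in the non-injured male than in the non-injured female library, 39 of them at least 2-fold. The median log2 ratio of male over female non-injured was 0.84 for these genes, against 0.20 for all 8678 genes at 10 CPM. In 6 of the 91 the non-injured male library lay nearer to the mean of the injured libraries than to the non-injured female one on the log2 scale. The same held for 53.5% of the 8678 genes at 10 CPM. Calls favour genes in which both pairs move together, so the 6 do not measure the influence of that library. The female pair had the larger ratio in 72 of the 91, with a median log2 ratio of 3.39 in the female pair and 2.92 in the male pair. Over all 8678 genes at 10 CPM the medians were 0.75 and 0.38, so the female ratio was larger there too. No share over all genes was counted for the 70, 39 and 72, so they are not read as a trait of the risen genes. Without the non-injured male library, 2469 genes stood apart higher (28.5%) and 228 lower (2.63%).

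By the fixed ranking of called protein-coding genes at 10 CPM, the largest rise was that of Spp1 (chr5:104435118-104441050 in GRCm38, + strand), which encodes osteopontin, a secreted matrix and adhesion protein. Spp1 held 29310 CPM in the injured female library and 99470 CPM in the injured male library, against 57.4 CPM in the non-injured female library and 1987 CPM in the non-injured male library. The groups did not overlap, yet the 2 non-injured libraries were themselves far apart. The fitted log2 difference of Spp1 was 7.31 (SE 1.21, adjusted p = 0.0476).

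Gdf3 and Igf1, both genes of secreted signals, came among the next. Gdf3 (chr6:122605403-122610087, - strand), a member of the TGF-beta family, lay at 249 and 89.2 CPM in the injured female and male libraries, and at 0.554 and 1.78 CPM in the non-injured ones. The log2 difference of Gdf3 was 6.92 (SE 0.78, adjusted p = 0.0213). Igf1 (chr10:87858265-87937042, + strand), the insulin-like growth factor, lay at 266 and 359 CPM in the injured female and male libraries, against 8.48 and 6.89 CPM in the non-injured ones. Here the non-injured libraries were close to each other, and the male pair had the larger ratio. Igf1 rose by 5.34 (SE 0.52, adjusted p = 0.0213).

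Cd5l, Mmp8 and Chil3, known from macrophages and granulocytes, were also among the 12 largest. Cd5l, a secreted macrophage survival protein, lay at 80.5 and 106 CPM in the injured female and male libraries and at 0.641 and 2.80 CPM in the non-injured ones (log2 5.86, SE 0.70, adjusted p = 0.0213). Mmp8, a collagen-cleaving protease known mainly from neutrophils, lay at 136 and 150 CPM in the injured female and male libraries and at 0.641 and 5.64 CPM in the non-injured ones (log2 5.79, SE 0.74, adjusted p = 0.0213). Chil3, a chitinase-like protein of activated macrophages and monocytes, lay at 38.4 and 79.6 CPM against 0.787 and 3.55 CPM (log2 4.89, SE 0.60, adjusted p = 0.0242). In each of these the injured libraries lay far above both non-injured ones, and the non-injured male library above the female one.

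The remaining 6 of the 12 largest rises lay between Adgrg3, an adhesion receptor gene of leukocytes (log2 4.74), and Mcoln3, an endolysosomal cation channel gene (log2 5.38). Between them were Slpi, an inhibitor of serine proteases, and Runx3, a transcription factor of blood cells. The others were Mmp27, a matrix metalloproteinase gene, and Slfn4, a schlafen family gene of myeloid cells. Slpi was uneven, at 7.56 and 115 CPM in the injured female and male libraries and 0.117 and 3.30 CPM in the non-injured ones, so that the injured female library was within 2-fold of the non-injured male one once 1 CPM was added.

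**Figure D2:**
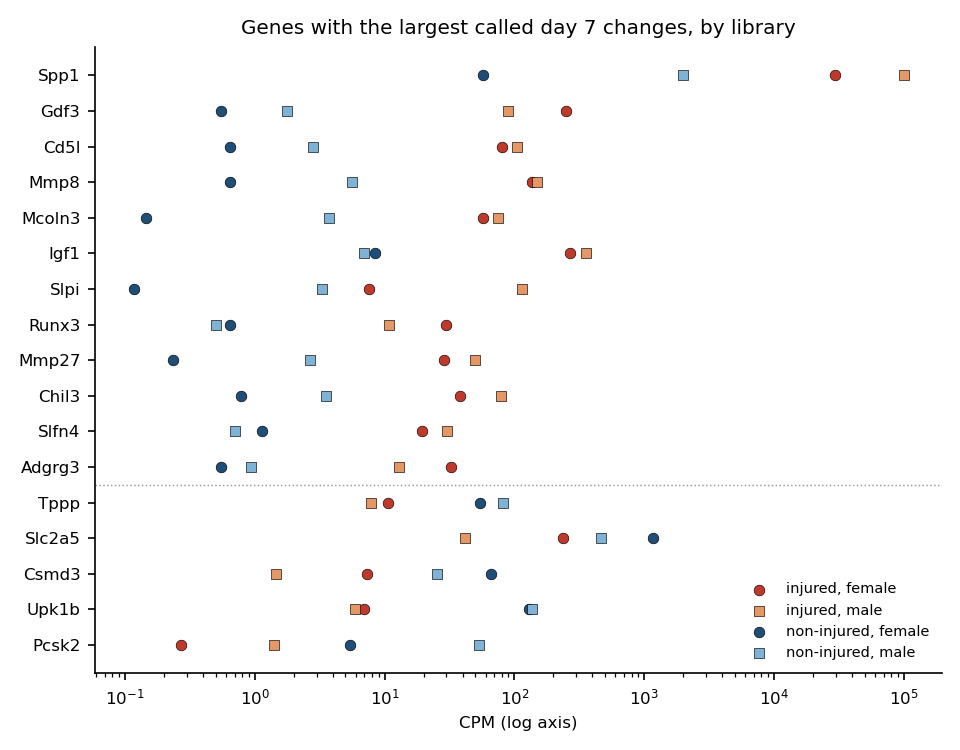
CPM on a log axis in the 4 day 7 libraries for the 12 genes with the largest called rises (upper rows) and the 5 called falls whose libraries did not overlap between the sides (lower rows). Injured libraries (red and orange) lie to the right of both non-injured ones (dark and light blue) in the upper rows and to the left in the lower rows.

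Of the falls, 6 protein-coding genes reached a mean of 10 CPM, and in 5 of them both injured libraries lay below both non-injured ones. Adgrg1, the other one, is described with the resting markers. Upk1b (chr16:38773184-38800328, - strand), a tetraspanin gene used as a marker of resting microglia, lay at 6.95 and 5.94 CPM in the injured female and male libraries, against 129 and 136 CPM in the non-injured ones. Its libraries agreed closely within each side, and the log2 difference of Upk1b was -4.37 (SE 0.49, adjusted p = 0.0242). Slc2a5, the fructose transporter of microglia, lay at 235 and 41.8 CPM in the injured female and male libraries and at 1162 and 462 CPM in the non-injured ones (log2 -2.88, SE 0.38, adjusted p = 0.0368). The sexes differed on both sides, and the log2 ratio of Slc2a5 was -2.30 in the female pair and -3.44 in the male pair.

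The remaining 3 are genes known from neurons and glia. Pcsk2, a prohormone-processing protease of neurons and endocrine cells, lay at 0.273 and 1.42 CPM in the injured female and male libraries and at 5.39 and 53.6 CPM in the non-injured ones (log2 -5.02, SE 0.70, adjusted p = 0.0292). Csmd3, a large transmembrane protein of the brain, lay at 7.29 and 1.46 CPM against 66.4 and 25.4 CPM, and Tppp, a tubulin-binding protein of oligodendrocytes, at 10.7 and 7.83 CPM against 54.7 and 81.1 CPM. Pcsk2 was highest in the non-injured male library, which also held the most neuronal marker RNA (summed over 16 markers, 85.5 and 107 CPM in the injured female and male libraries, against 138 and 1064 CPM in the non-injured ones). The part of those cells in this fall was not tested.

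The gene lists described next were written with earlier results of these data known, and each count is to be read against the share of all genes at 10 CPM under the same setting. Those that stood apart higher were 8.39%, against 4.85% with median-ratio factors, 2.01% on TPM and 28.5% without the non-injured male library. Those that stood apart lower were 0.979%, 1.91%, 5.42% and 2.63%. For the other libraries left out, the counts among the 8678 genes serve instead. Without the non-injured female library 1145 stood apart higher and 450 lower. Without the injured female library 1238 stood apart higher and 339 lower, and without the injured male library 1414 and 146. List medians of 1 pair are to be read against those of all genes at 10 CPM, 0.75 in the female pair and 0.38 in the male pair. For male over female non-injured the value of all genes was 0.20. Members that were not called are named for contrast and were chosen after their values were seen.

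The disease-associated set, named after microglia around amyloid plaques, was among the lists that differed most. Of its 32 genes, 8 rose and 0 fell, and of the 29 at 10 CPM, 20 stood apart higher and 0 lower (18 with median-ratio factors, 11 on TPM). Their median log2 difference was 2.53. Clec7a, a receptor for fungal glucans, lay at 391 and 329 CPM in the injured female and male libraries and at 29.8 and 35.4 CPM in the non-injured ones (log2 3.46, SE 0.50, adjusted p = 0.04). The groups were far apart and the libraries alike within each side.

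The other called members were Spp1, Igf1, Lpl, Plin2, Ctsb, Cd63 and Fam20c. Gpnmb and Apoe, both well known from that set, were not called, and their ratio was larger in the female pair. Gpnmb, a lysosomal and secreted glycoprotein, lay at 6802 and 5029 CPM in injured libraries (female, then male), against 6.91 and 354 CPM in non-injured ones (log2 6.74, adjusted p = 0.115). Apoe, the lipid carrier apolipoprotein, lay at 68460 and 118100 CPM in injured and 1115 and 11630 CPM in non-injured libraries (log2 4.64, adjusted p = 0.0648). Both stood apart higher.

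Lipid storage and efflux genes, some of them members of that set too, were also higher. Of 24 genes 3 rose and 0 fell, and 13 of the 23 at 10 CPM stood apart higher (8 on TPM), with a median of 2.50. Plin2, the coat protein of lipid droplets, lay at 832 and 1467 CPM in the injured female and male libraries, against 36.7 and 161 CPM in the non-injured ones, and rose by 3.84 (SE 0.45, adjusted p = 0.0242). Lpl, the lipoprotein lipase, lay at 248 and 215 CPM in injured and 21.2 and 16.4 CPM in non-injured libraries, and rose by 3.63 (SE 0.52, adjusted p = 0.0368). Abcg1, a cholesterol exporter, lay at 2032 and 4279 CPM in injured and 468 and 645 CPM in non-injured libraries, and rose by 2.42 (SE 0.36, adjusted p = 0.0402).

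Cholesterol synthesis genes gave no such count. Of its 24 genes 0 were called, 0 of the 16 at 10 CPM stood apart in either direction, and their median log2 difference was 0.11. Without the non-injured male library 4 stood apart higher, and without the non-injured female library 2 stood apart lower. The list's median ratio was 0.60 in the female pair and -0.34 in the male pair, and its sign over both pairs is negative with median-ratio factors (-0.26) and on TPM (-0.91).

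Lysosomal genes were higher as a group. Of 34 genes 5 rose and 0 fell, and 18 of the 33 at 10 CPM stood apart higher (10 with median-ratio factors, 3 on TPM, 29 without the injured male library), with a median of 1.61. Ctsb, the protease cathepsin B, lay at 36030 and 36740 CPM in injured and 3562 and 8098 CPM in non-injured libraries (log2 2.76, SE 0.39, adjusted p = 0.037). Psap, the precursor of the saposins that help degrade sphingolipids, lay at 2531 and 3691 CPM in injured and 443 and 812 CPM in non-injured libraries (log2 2.35, SE 0.35, adjusted p = 0.0402). Gusb, the enzyme beta-glucuronidase, lay at 2197 and 1622 CPM in injured and 503 and 463 CPM in non-injured libraries (log2 1.97, SE 0.30, adjusted p = 0.0407). The other 2 called members were Cd63 and Hexa.

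Matrix genes and proteases were next. Of 38 genes 5 rose and 0 fell, and 13 of the 27 at 10 CPM stood apart higher (9 on TPM). Besides Spp1 and Mmp8 the called members were Emilin2, an elastic fibre glycoprotein, Adam8, a membrane protease of leukocytes, and Thbs1, thrombospondin 1. Emilin2 lay at 197 and 111 CPM in injured and 4.58 and 12.8 CPM in non-injured libraries (log2 4.20, SE 0.65, adjusted p = 0.0475). Col1a1, a chain of fibrillar collagen, lay at 3.06 CPM in the injured female library and 58.5 CPM in the injured male library, against 0.962 and 1.48 CPM in non-injured ones, and was not called (adjusted p = 0.0998).

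Genes for heme, iron and peroxide handling included 3 that rose among 27, and 7 of the 24 at 10 CPM stood apart higher (4 with median-ratio factors, 4 on TPM, 13 without the injured female library, 16 without the non-injured male one). Hmox1, the heme-degrading enzyme heme oxygenase 1, lay at 280 and 295 CPM in injured and 18.2 and 25.1 CPM in non-injured libraries. It was alike in both sexes on both sides, and Hmox1 rose by 3.75 (SE 0.38, adjusted p = 0.0213). Ftl1, the ferritin light chain, lay at 27060 and 34940 CPM in injured and 2793 and 6548 CPM in non-injured libraries (log2 2.85, SE 0.35, adjusted p = 0.0292), and Prdx1, a peroxiredoxin, rose by 2.53 (SE 0.35, adjusted p = 0.0368). Slc40a1, the iron exporter ferroportin, overlapped between the sides (log2 0.14, adjusted p = 0.86).

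Among 33 inflammatory cytokine genes and NF-kB targets 3 rose and 0 fell, and 6 of the 27 at 10 CPM stood apart higher. Without the non-injured female library 16 did, and without the non-injured male library 12. Il1b, the cytokine interleukin 1 beta, lay at 241 and 151 CPM in injured and 34.8 and 8.92 CPM in non-injured libraries (log2 3.42, SE 0.53, adjusted p = 0.0452). Il1rn, which encodes the antagonist of its receptor, lay at 78.8 and 209 CPM in injured and 6.44 and 14.7 CPM in non-injured libraries (log2 3.73, SE 0.53, adjusted p = 0.0368). The neutrophil-attracting chemokine gene Cxcl1 rose as well (log2 3.99, SE 0.63, adjusted p = 0.0475). Tnf, the gene of tumour necrosis factor, lay at 433 and 181 CPM in injured and 229 and 32 CPM in non-injured libraries and overlapped between the sides (log2 1.70, adjusted p = 0.171).

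No gene of the type I interferon response list was called. Of its 41 genes at 10 CPM, 18 stood apart higher (13 with median-ratio factors, 3 on TPM, 31 without the non-injured male library). The list median was 2.25 in the female pair and 0.87 in the male pair, and 1.2 for male over female non-injured. Bst2, the tetherin that holds budding virus at the cell surface, lay at 494 and 517 CPM in injured and 46.3 and 138 CPM in non-injured libraries (log2 2.66, adjusted p = 0.054). In antigen presentation, 4 of 19 class I and 3 of 10 class II genes at 10 CPM stood apart higher, and 0 were called. With median-ratio factors 1 class I and 0 class II genes stood apart higher, and on TPM 0 of either. The class II median was 0.65, and -0.41 on TPM, near the values of all genes at 10 CPM (0.58 and -0.48). Without the non-injured male library 12 class I and 5 class II genes stood apart higher, and 9 class I genes did without the injured male library.

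Many cell division genes stood apart, but none was called. Of 36 mitosis genes 0 were called, yet 26 of the 31 at 10 CPM stood apart higher and 0 lower (17 with median-ratio factors, 5 on TPM), with medians of 2.31 in the female pair and 1.87 in the male pair. Mki67, the proliferation antigen, lay at 70.9 and 83.3 CPM in injured and 7.84 and 10.7 CPM in non-injured libraries (log2 3.06, adjusted p = 0.126). Cdk1, the kinase that starts mitosis, lay at 34.1 and 62.1 CPM in injured and 6.06 and 14.3 CPM in non-injured libraries (log2 2.29, adjusted p = 0.158). Of 37 DNA replication genes 0 were called and 12 of the 27 at 10 CPM stood apart higher (7 with median-ratio factors, 1 on TPM, 21 without the injured female library, 22 without the non-injured male one). Mcm6, a subunit of the replicative helicase, lay at 151 and 133 CPM in injured and 27.1 and 34.3 CPM in non-injured libraries (log2 2.21, adjusted p = 0.074).

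**Figure D3:**
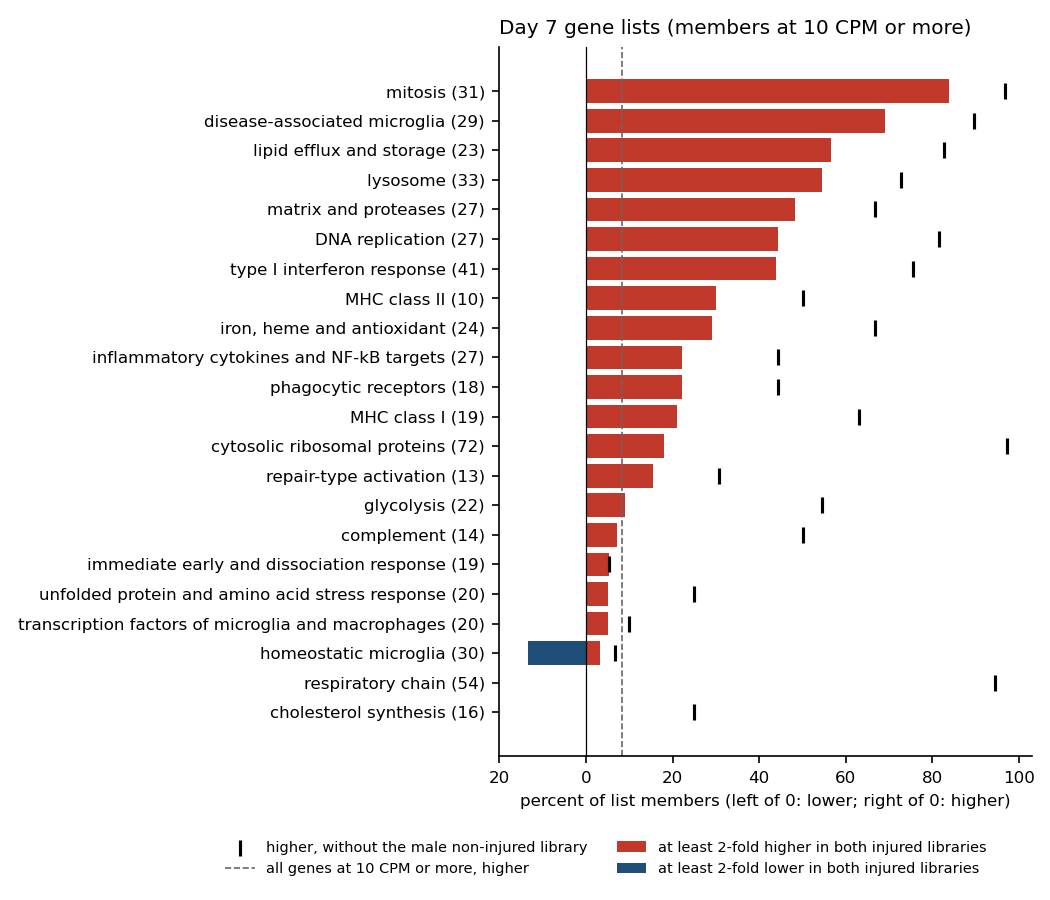
Percent of each list's members whose mean reached 10 CPM (number in brackets) that stood at least 2-fold higher (red, to the right) or lower (blue, to the left) in both injured libraries than in both non-injured ones. The dashed line marks the 8.39% of all genes that were higher, and the black ticks give the share without the non-injured male library, which is 51 of 54 for the respiratory chain against 0 of 54 with it.

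The promoters of 3 of these lists are shown because members of each stood apart together and because each list is known from other work for a short DNA motif. The RefSeq promoter table for GRCm38.p6 gives 300 bases per gene start, 250 before and 50 after it. Both strands were searched in all promoters of 27025 gene symbols. GAAA followed by 2 bases of any kind and a further GAAA is the core of the interferon-stimulated response element. It was in 19 of the 31 interferon-response genes with a promoter (61.3%), against 3.99% of all symbols. TTTGAA, the cell cycle homology element of mitosis genes, was in 21 of 29 (72.4%), against 20.2%. CACGTG, the E-box core of the lysosomal CLEAR element, was in 11 of 26 (42.3%), against 8.09%. These shares describe the lists, and the motifs hold in 7 of 14, 16 of 21 and 6 of 14 of the members that stood apart higher. Windows of 100 bases are printed for the 3 members of each list that stood apart higher, held the motif and had the largest log2 difference. They run 5′ to 3′ along the gene, with each match to either strand in capitals, and the 2 matches of Bst2 overlap.
Ifi211, an interferon-inducible gene of the p200 family, chr1:173913029-173913128, - strand: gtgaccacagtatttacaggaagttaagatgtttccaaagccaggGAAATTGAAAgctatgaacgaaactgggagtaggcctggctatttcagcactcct
Oas3, an antiviral oligoadenylate synthetase, chr5:120777680-120777779, - strand: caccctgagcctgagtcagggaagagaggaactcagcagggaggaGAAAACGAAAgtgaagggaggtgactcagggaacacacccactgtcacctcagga
Bst2, tetherin, chr8:71537542-71537641, - strand: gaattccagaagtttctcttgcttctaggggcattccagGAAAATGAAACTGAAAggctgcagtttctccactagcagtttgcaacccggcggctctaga
Mki67, chr7:135716425-135716524, - strand: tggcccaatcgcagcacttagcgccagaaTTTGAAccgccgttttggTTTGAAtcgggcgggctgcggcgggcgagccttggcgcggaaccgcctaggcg
Ube2c, a ubiquitin-conjugating enzyme of mitosis, chr2:164769853-164769952, + strand: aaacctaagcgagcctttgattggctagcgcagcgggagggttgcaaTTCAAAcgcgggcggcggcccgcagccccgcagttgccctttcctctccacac
Ccnb2, the mitotic cyclin B2, chr9:70421505-70421604, - strand: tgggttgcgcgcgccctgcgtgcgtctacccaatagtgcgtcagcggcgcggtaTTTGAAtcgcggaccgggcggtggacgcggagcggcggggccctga
Gla, alpha-galactosidase A, chrX:134601147-134601246, - strand: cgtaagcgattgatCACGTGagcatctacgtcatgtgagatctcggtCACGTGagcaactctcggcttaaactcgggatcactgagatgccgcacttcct
Ctsd, the protease cathepsin D, chr7:142387873-142387972, - strand: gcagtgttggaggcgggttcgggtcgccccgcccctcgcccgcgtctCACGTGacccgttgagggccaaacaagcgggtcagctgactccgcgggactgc
Atp6v1a, a subunit of the lysosomal proton pump, chr16:44139338-44139437, - strand: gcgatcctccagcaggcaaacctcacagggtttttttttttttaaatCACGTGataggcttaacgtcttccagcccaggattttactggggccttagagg

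Values of the genes not yet given are as follows. Ifi211 lay at 99.0 and 126 CPM in injured and 2.71 and 26.4 CPM in non-injured libraries (log2 3.54, adjusted p = 0.106). Oas3 lay at 86.0 and 34.5 CPM in injured and 3.03 and 14.4 CPM in non-injured libraries (log2 2.89, adjusted p = 0.132). Both interferon-response genes were higher in the non-injured male than in the non-injured female library. Ccnb2 lay at 62.8 and 88.5 CPM in injured and 6.59 and 20 CPM in non-injured libraries (log2 2.67, adjusted p = 0.164). Ctsd lay at 43530 and 18200 CPM in injured and 8648 and 4429 CPM in non-injured libraries (log2 2.19, adjusted p = 0.0721). Cathepsin D and alpha-galactosidase A both act inside the lysosome. Gla lay at 149 and 236 CPM in injured and 6.47 and 52.1 CPM in non-injured libraries (log2 3.28, adjusted p = 0.0612). Ube2c lay at 25.9 and 22.3 CPM in injured and 2.54 and 3.62 CPM in non-injured libraries (log2 2.96, adjusted p = 0.175). Atp6v1a lay at 349 and 377 CPM in injured and 57.9 and 112 CPM in non-injured libraries (log2 2.17, adjusted p = 0.081). Each of these 7 was higher in both injured libraries, and none was called. A match is a stretch of letters and was not tested for binding.

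Housekeeping groups split by the non-injured library used. Of 72 cytosolic ribosomal protein genes at 10 CPM 13 stood apart higher, 48 without the injured female library and 70 without the non-injured male library, with a median of 2.11 in the female pair and 1.07 in the male pair. Of 54 respiratory chain genes 0 stood apart, and 51 without that library, with a median of 1.85 in the female pair and 0.56 in the male pair. Of 22 glycolysis genes at 10 CPM 2 stood apart higher, and 12 without it. None of the genes of these 3 lists was called. Ribosomal protein genes, Ftl1, the class I genes and the Oas, Ifit and Slfn families have near-identical copies or pseudogenes, among which the authors' counting can split reads.

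Of 30 markers of resting microglia 3 fell and 0 rose, and of the 30, all at 10 CPM, 4 stood apart lower and 1, Trem2, higher, with a median of -0.93 (6 lower with median-ratio factors, 9 on TPM). Leaving out 1 library moved the count of lower markers to 12 without the non-injured male library and to 14 without the injured female library. The called ones were Upk1b, Slc2a5 and Adgrg1, an adhesion receptor gene. Adgrg1 lay at 190 and 21.9 CPM in the injured female and male libraries and at 893 and 149 CPM in the non-injured ones, so the sexes differed on both sides (log2 -2.49, SE 0.34, adjusted p = 0.0368).

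The nucleotide receptor gene P2ry12 was not called, at 1224 and 550 CPM in injured and 4370 and 3763 CPM in non-injured libraries (log2 -2.31, SE 0.43, adjusted p = 0.0621). Tmem119, another widely used marker, lay at 2205 and 958 CPM in injured and 4593 and 2125 CPM in non-injured libraries (log2 -1.10, SE 0.27, adjusted p = 0.106). Sall1, a transcription factor that maintains microglial identity, lay at 109 and 26.1 CPM in injured and 367 and 98.1 CPM in non-injured libraries (log2 -1.83, SE 0.34, adjusted p = 0.062). Each was lower in the injured library of both pairs, while Tmem119 and Sall1 overlapped between the sides. Trem2, a lipid-sensing receptor of microglia, lay at 1656 and 1563 CPM in injured and 648 and 767 CPM in non-injured libraries (log2 1.19, SE 0.36, adjusted p = 0.15). Csf1r, the receptor on which microglia depend for survival, had a smaller difference (log2 -0.42, SE 0.24, adjusted p = 0.327).

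Markers of other cells were examined because the sort gate could hold them. Of 17 monocyte markers 4 rose and 0 fell, and 9 of the 13 at 10 CPM stood apart higher (6 with median-ratio factors, 4 on TPM). Their summed level was 2360 and 2377 CPM in the injured female and male libraries, against 298 and 497 CPM in the non-injured ones. Ccr2, the chemokine receptor of inflammatory monocytes, lay at 110 and 88.7 CPM in injured and 11.3 and 15.3 CPM in non-injured libraries (log2 2.90, SE 0.44, adjusted p = 0.0407). Clec4e, a receptor for dying cells, and Hp, haptoglobin, rose as well, by 3.60 and 4.51. Hp was uneven, at 13.5 CPM in the injured female library and 285 CPM in the injured male library, against 0.466 and 13.5 CPM in non-injured ones. How far these cells contribute to the rises described above was not tested.

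Of 14 markers of border-associated macrophages 1 rose, Folr2, a folate receptor gene, at 107 and 124 CPM in injured and 6.67 and 4.96 CPM in non-injured libraries (log2 4.33, SE 0.71, adjusted p = 0.0475). Of the 11 at 10 CPM, 8 stood apart higher (also 8 with median-ratio factors, 4 on TPM), with a median of 3.14. The summed level was 4516 and 4681 CPM in injured and 704 and 820 CPM in non-injured libraries. Lyve1, a marker of vessel-associated macrophages, lay at 5.18 and 1.35 CPM in injured and 9.04 and 2.98 CPM in non-injured libraries. Of 15 neutrophil markers 2 rose, Mmp8 and S100a8, a calcium-binding alarmin, which lay at 8.21 and 109 CPM in injured and 1.25 and 1.96 CPM in non-injured libraries. Of the 5 at 10 CPM, 4 stood apart higher (2 with median-ratio factors, 2 on TPM), and the list summed to 677 and 567 CPM in injured and 415 and 183 CPM in non-injured libraries. Ly6g, the defining neutrophil antigen, was at 0 in both injured libraries. The part of border-associated macrophages and neutrophils in the rises was not tested.

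Markers of neurons, astrocytes and vessels were highest in the non-injured male library. Astrocyte markers summed to 602 and 1184 CPM in the injured female and male libraries, and to 265 and 4747 CPM in the non-injured female and male libraries. Endothelial markers summed to 152 and 113 CPM in injured and 159 and 895 CPM in non-injured libraries. Of the 16 neuronal markers 1 fell, Slc17a7, the glutamate transporter of excitatory neurons (log2 -3.34, SE 0.60, adjusted p = 0.0475), and 0 astrocyte or endothelial markers were called. Immediate early genes, which also react to cell dissociation, summed to 16430 and 10570 CPM in injured and to 16430 and 2998 CPM in non-injured libraries, so the non-injured male library was the lowest.

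**Figure D4:**
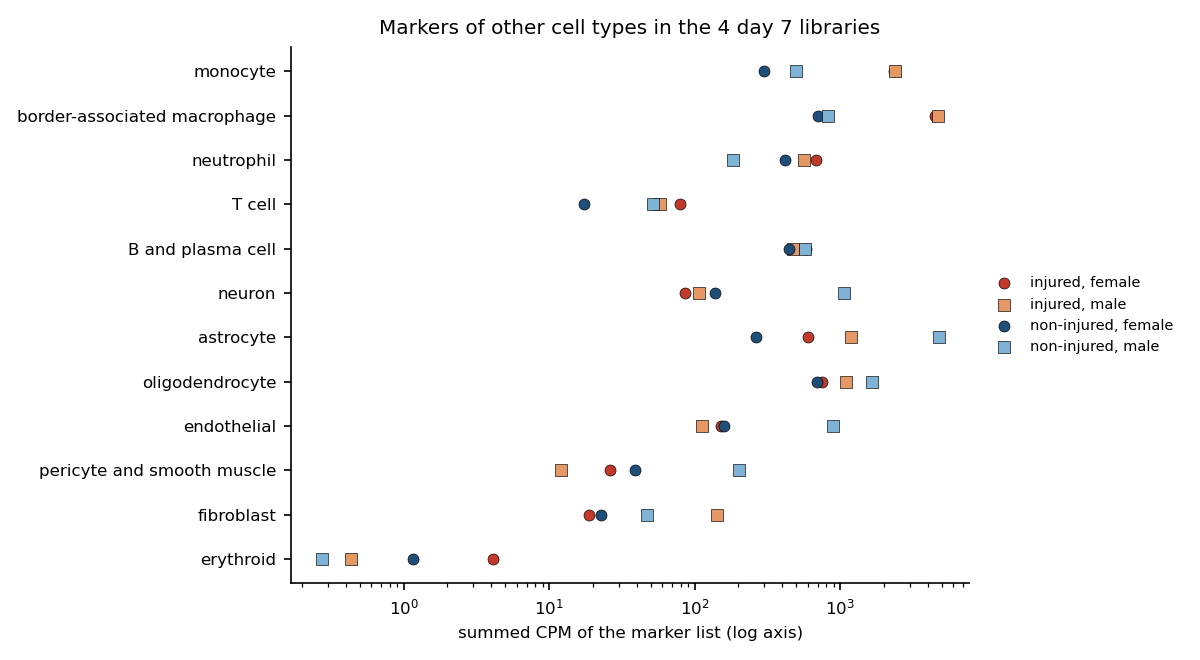
Summed CPM (log axis) of marker lists of other cell types in the 4 day 7 libraries. Monocyte and border-associated macrophage markers are higher in both injured libraries (red and orange), while neuron, astrocyte and endothelial markers are highest in the non-injured male library (light blue), for example 4747 CPM for astrocytes.

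The genes that set the non-injured male library most apart from the female one were named by their ratio. Saa3, an acute-phase protein gene, lay at 14.5 and 5150 CPM in the injured female and male libraries and at 0.35 and 2840 CPM in the non-injured ones, so it followed sex more than side. Arg1, the arginase of repair-type macrophages, lay at 18.1 and 914 CPM in injured and 0.408 and 157 CPM in non-injured libraries (log2 3.35, SE 0.58, adjusted p = 0.0519). Wfdc17, a secreted protease inhibitor gene of macrophages, lay at 500 and 1716 CPM in injured and 3.58 and 308 CPM in non-injured libraries. These 3 are genes of activated myeloid cells and were highest in the injured male library.

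Gfap, the intermediate filament of astrocytes, was highest there too and lay at 274 and 497 CPM in injured and 3.79 and 412 CPM in non-injured libraries. The other 4 were highest in the non-injured male library. Aldoc, an aldolase of astrocytes, lay at 63.1 and 266 CPM in injured and 29.6 and 2556 CPM in non-injured libraries, and Snhg11, a transcript abundant in neurons, at 1.33 and 6.01 CPM against 2.97 and 312 CPM. Ctla2a and Ccl8 are a protease inhibitor and a chemokine gene. None of the 8 was called for injury at day 7, with adjusted p-values between that of Arg1 and that of Ctla2a (0.72).

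The last comparison asked what is particular to day 7 against days 1, 4 and 14, which have libraries of their own. No gene passed: 0 of 28597 (0%) had an adjusted p under 0.05 for the day 7 effect minus the mean of the other 3 effects (smallest adjusted p 0.754, 1714 genes at an unadjusted p under 0.05, 16 calls in DESeq2). Some of the 6 genes with the smallest p in each direction are given, as values only. Hexa, a subunit of beta-hexosaminidase, lay at 2928 and 1846 CPM in injured and 797 and 652 CPM in non-injured libraries at day 7 (log2 1.69, SE 0.27), against log2 differences of -1.02, 1.2 and 1.08 at days 1, 4 and 14. Selenop, a selenium carrier protein gene, showed log2 differences of -1.86, 0.67, 1.25 and 0.52 at days 1, 4, 7 and 14. In the other direction, Marco, a scavenger receptor gene, showed 7.08, 5.98, -0.11 and 5.34, with 0.954 and 27.8 CPM in injured and 0.262 and 39.4 CPM in non-injured libraries at day 7. Il1rn showed 7.34, 5.38, 3.73 and 7.48. Ccl12, a chemokine gene with the smallest unadjusted p among those selected, showed 4.26, 3.07, 0.49 and 1.07.

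Most day 7 rises were also called at day 4. Of the 91 genes that rose at day 7, 84 (92.3%) rose at day 4, which is 19.2% of the 437 that rose then, 34 (37.4%) at day 1, and 11 (12.1%) at day 14. Of the 16 that fell, 12 (75%) fell at day 4, 8 (50%) at day 1 and 2 (12.5%) at day 14. The numbers called at days 1, 4 and 14 were 301, 586 and 17. Of all 28597 genes tested, 135, 437 and 13 rose and 166, 149 and 4 fell on those days. The 4 days share 1 estimate of the spread, so the overlaps of calls are not independent of it. The median of the mitosis list was 0.60, 1.98, 2.21 and -0.03 at days 1, 4, 7 and 14, that of the lysosome list -0.15, 1.69, 1.61 and 0.88, and that of the resting markers -1.89, -0.83, -0.93 and -0.73. The same medians over all 8678 genes were 0.04, 0.30, 0.58 and 0.04. Those genes, like the list members, were chosen by their day 7 mean. Over all 28597 genes tested the medians were -0.05, -0.20, -0.84 and 0. Differences of list medians between days were not tested.

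**Figure D5:**
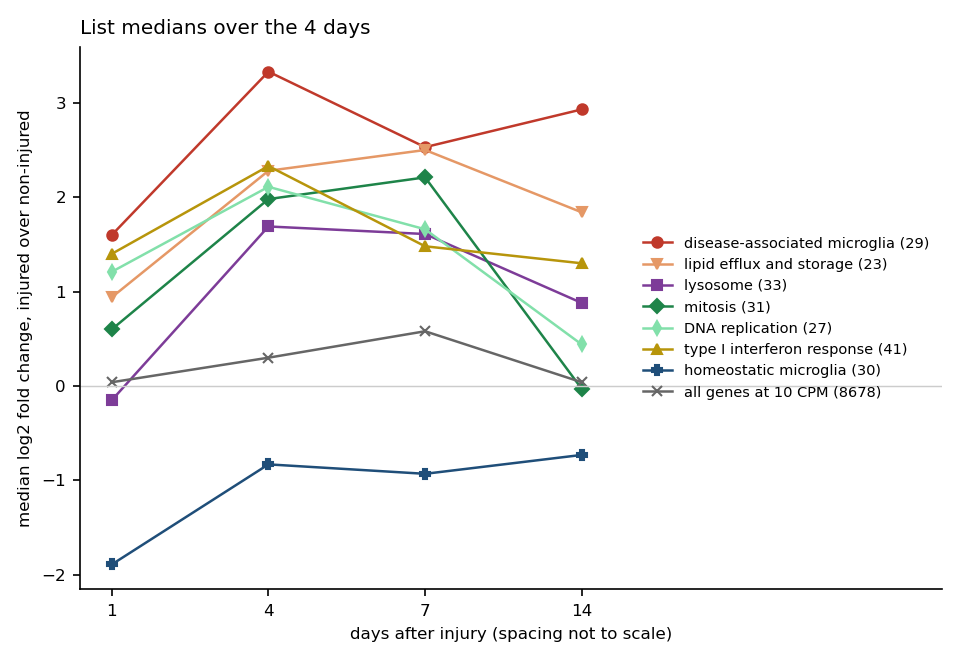
Median log2 fold change, injured over non-injured, of 7 lists (number of genes in brackets) and of all 8678 genes at 10 CPM, at days 1, 4, 7 and 14 after injury. The 10 CPM filter was set on the day 7 libraries alone. The mitosis list is at 2.21 on day 7 and -0.03 on day 14, while the disease-associated list stays between 1.60 and 3.33.

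The authors' deposited tables give larger numbers of changed genes. The authors' deposited table for both sexes at day 7 holds 4656 genes with an adjusted p under 0.05, of which 1090 are higher and 3566 lower in injured cells. The authors' deposited tables for females and for males hold 13512 and 13152, where 55385 genes were counted. All 107 genes called here are under 0.05 with the same direction in each of the authors' tables. Those tables rest on the same samples, so this is no independent support. For Spp1 the authors' deposited tables give log2 fold changes of 8.39 (SE 0.0429) in females, 5.42 (SE 0.0285) in males and 5.70 (SE 0.888) for both. For Upk1b the authors' deposited tables give -4.83 (SE 0.108) in females, -4.75 (SE 0.119) in males and -4.79 (SE 0.712) for both.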

How the data were processed

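RNA of EYFP+ cells sorted from cortex was reverse transcribed with a SMART-Seq v4 kit and sequenced from Nextera XT libraries, an unstranded protocol. Salmon 1.0.0 and DESeq2 1.26.0 appear in the submitters' processing notes, while build and annotation were not given in the sources used here. A deposited table of estimated counts per gene (55385 genes, 32 columns, 0 left out) was made by the authors, and so were the TPM values, which served as an alternative. The authors' deposited comparison tables hold log2 fold changes, a standard error per gene (a score with no fixed range) and p-values, which are quoted only where named.

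Counts were rounded to whole numbers and the 2 columns of each day, sex and side were summed to 16 libraries of 20863982 to 55378788 counts. The main test was edgeR 4.0.16's quasi-likelihood test in R 4.3.3, with TMM factors, a filter at a count of 10, a mean for each of the 8 day and sex pairs and an injury effect for each day, Benjamini-Hochberg adjustment and a threshold of 0.05. limma 3.58.1 and DESeq2 1.42.0 were alternatives. The script was tested on simulated data. Symbols came from the authors' tables and coordinates from GENCODE annotation of GRCm38, in which 55144 IDs matched.

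Named genes were up to 12 rises and 12 falls with the largest log2 difference among called protein-coding genes at 10 CPM with both injured libraries beyond both non-injured ones, up to 4 called members per list, 6 genes in each direction for day 7 against the other days by smallest p, and the 8 genes highest in the non-injured male over the non-injured female library. Members and lists were chosen with earlier results of these data known. The 2-fold description of genes that stood apart, its alternatives and the older dispersion estimate were chosen after seeing the data.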

Additional observations from a re-analysis of the deposited data

Results flagged for a closer look

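In 3 genes and 1 list the female and the male pair moved in opposite directions by at least 1.5-fold each, and the difference between the pairs was not tested. Aldoc, an aldolase of astrocytes, had a log2 ratio, injured over non-injured, of 1.07 in the female pair and -3.26 in the male pair. Ctla2a, a protease inhibitor gene, had 3.82 in the female pair and -1.72 in the male pair. Ccl8, a chemokine gene, had 3.48 in the female pair and -0.91 in the male pair. The median over astrocyte markers at 10 CPM was 1.07 in the female pair and -1.58 in the male pair. For these genes the non-injured male library was the highest of the 4, and each sex has 1 library per side. With 1 library per sex and side, no check for a stray replicate within a group could be made.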

How the results depend on the processing

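The number of genes called for injury at day 7 was 107 and moved to 27 with no filter on low counts, 1320 with edgeR's older dispersion estimate, 2188 in DESeq2, 179 in limma on log2(TPM + 1) and 248 on log2(TPM + 0.1). It was 0 without the pair term, 0 with the day 7 libraries alone (with or without a sex term), and from 0 to 0 when 1 day 7 pair, or 1 day 7 library with no pair term, was left out. Median-ratio factors gave 91, of which 67 were among the 107. The DESeq2 calls were 825 higher and 1363 lower. The 107 kept their direction in each of these fits, all of which share these libraries. Day 7 against the other days gave 0 calls, 29 with the older dispersion estimate, 2 in limma on log2(TPM + 1) and 16 in DESeq2.

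Treating the 32 columns as separate samples gave 14268 calls, and 12988 with the replicate number as a replicate block. The deviations of same-numbered columns correlated at 0.0568 in females and 0.0404 in males. For the typical gene the columns differ by little more than counting noise, so these values cannot show whether the replicate numbers mark a pairing.

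Genes that stood apart numbered 728 higher and 85 lower. These counts were 421 and 166 with median-ratio factors, 174 and 470 on TPM, 1578 and 184 at 1.5-fold, 308 and 26 at 3-fold, and 1145 to 2469 and 146 to 450 with 1 library left out. The log2 difference of Cx3cr1 ranged from -2.68 to 1.29 with 1 library left out, and turned to 1.29 and 0.31 without the pair term and without the non-injured female or the injured male library. The cause of these changes was not tested. The libraries held 23673779 to 40848878 counts, and each sex and side rests on 1 library.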

Other observations

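Several called genes outside the lists, chosen after their values were seen, encode proteins that bind or remodel actin. Iqgap1, a scaffold of the actin cortex, lay at 595 and 1067 CPM in the injured female and male libraries and at 26.5 and 130 CPM in the non-injured ones (log2 3.75, SE 0.48, edgeR adjusted p = 0.033). Gsn, the filament-severing protein gelsolin, lay at 340 and 301 CPM in injured and 6.09 and 34.8 CPM in non-injured libraries (log2 4.38, SE 0.67, adjusted p = 0.0432). Arpc3, a subunit of the branching complex, lay at 91.4 and 72.5 CPM in injured and 12.6 and 12 CPM in non-injured libraries (log2 2.72, SE 0.43, adjusted p = 0.0475). Cfl1, Pfn1 and Tmsb4x, which control filament turnover and the monomer pool, rose by 1.80, 1.75 and 1.76.

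Receptor genes of myeloid cells were among the calls as well. Trem1, an amplifier of inflammatory signals, lay at 25.6 and 44.4 CPM in injured and 1.54 and 3.05 CPM in non-injured libraries (log2 3.94, SE 0.52, adjusted p = 0.033). Cxcr4, a chemokine receptor, lay at 16.3 and 13.8 CPM in injured and 0.466 and 1.14 CPM in non-injured libraries (log2 4.20, SE 0.74, adjusted p = 0.0402).

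Of the 16 falls, several were low neuronal genes. Scg2, a secretory granule protein of neurons, lay at 0.204 and 0.911 CPM in injured and 5.74 and 26.3 CPM in non-injured libraries (log2 -4.83, SE 0.64, adjusted p = 0.0213). It was highest in the non-injured male library, which held the most neuronal marker RNA (1064 CPM), and the part of that RNA in this fall was not tested.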
